A study of Mus musculus with 16 samples.

Results

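The strongest constitutive open chromatin regions of mouse liver were taken from DNase-seq peak lists of 16 pools. Peaks of all 16 lists that overlapped by at least 1 bp were merged into 61240 regions, and 18443 of these held a peak in every list, 18114 of them on autosomes. The members are the 1000 autosomal regions with the highest mean log2 summit pileup per 1000000 tags over the 8 vehicle lists, which is 5.52% of the 18114. Summit pileup is the number of extended tags that cover the highest point of a peak, and its value per 1000000 tags of the library is written RPM. The rule used the vehicle values and the presence of a peak in all 16 lists, so the members' signal is a description and not a finding. The pools came from CD-1 mice that arrived aged 7 weeks and got an intraperitoneal injection. There were 2 pools in each of 8 groups: males 3 h after 3 mg/kg TCPOBOP and males 3 h after vehicle, females 3 h after TCPOBOP and after vehicle, males 27 h after TCPOBOP and after vehicle, and females 27 h after TCPOBOP and after vehicle. The vehicle was corn oil with 1% DMSO, and TCPOBOP was given in the same mixture. Each pool held DNA from 3 to 5 livers, so a list is an average over animals and over all liver cell types, and p-values measure the spread between pools only. Each combination of sex and time is an experiment of its own, so that differences between sexes or times cannot be told apart from differences between experiments.

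DNase I cuts DNA that is not wrapped in nucleosomes, and sites where it cuts often mark promoters, enhancers and insulators held open by bound proteins. Sites that are open in every sample of a tissue are called constitutive; many known ones are promoters of widely used genes and sites of the insulator protein CTCF. TCPOBOP is a synthetic agonist of CAR, a nuclear receptor that switches on drug-metabolising enzymes in hepatocytes. Regions are named here by their position in the mm9 build, and the genes beside them were not analysed.

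The lists held 29216 to 46281 peaks from libraries of 15679689 to 43618254 tags. In each list 458 to 552 of the peak numbers given by the caller were missing, 1.12% to 1.62%, so peaks had been removed after calling by a filter that the sources used here do not name. The Y chromosome held 62 to 85 peaks in each male list and 1 in each female list. The second TCPOBOP pool of males at 27 h stood apart, where the median shared region lay 0.46 above its mean over all lists on the log2 scale, against -0.19 to 0.14 in the other lists. Changes were therefore taken after each library was centred on the regions found in all lists. Without that step the median change of all regions tested was 0.15 at 3 h and 0.11 at 27 h in males.

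Signal at the members was several times that of shared regions as a whole. Their median pileup was 8.53 to 14.8 RPM across the lists, and the ratio to the median of all 18114 autosomal shared regions was 3.40 to 4.29. In raw tags the members' median was 140 to 536 per list, and the lowest member of a list had 52 to 232. Members held 10.8% to 14.4% of the summed summit pileup of the peaks deposited in a list, in 3.78% to 6.09% of its peak length.

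The pool medians of the members averaged 10.7 ± 0.97 RPM after TCPOBOP and 8.88 ± 0.067 after vehicle in males at 3 h (SD, n = 2 each). In females at 3 h they averaged 9.35 ± 0.38 after TCPOBOP and 9.91 ± 1.08 after vehicle (SD, n = 2 each). In males at 27 h they averaged 12.8 ± 2.81 after TCPOBOP and 11.4 ± 0.66 after vehicle (SD, n = 2 each). Females at 27 h had means of 9.05 ± 0.069 after TCPOBOP and 9.47 ± 1.33 after vehicle (SD, n = 2 each). The TCPOBOP and vehicle pools did not overlap in males at 3 h and overlapped in the other 3 experiments. These values are not centred, and in males at 3 h the medians of all autosomal shared regions did not overlap either. Those medians were 2.80 and 2.48 RPM after TCPOBOP and 2.42 and 2.21 after vehicle. The high mean of males 27 h after TCPOBOP comes from the pool that stood apart, with a median of 14.8 against 10.8 in its partner.

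**Figure D1:**
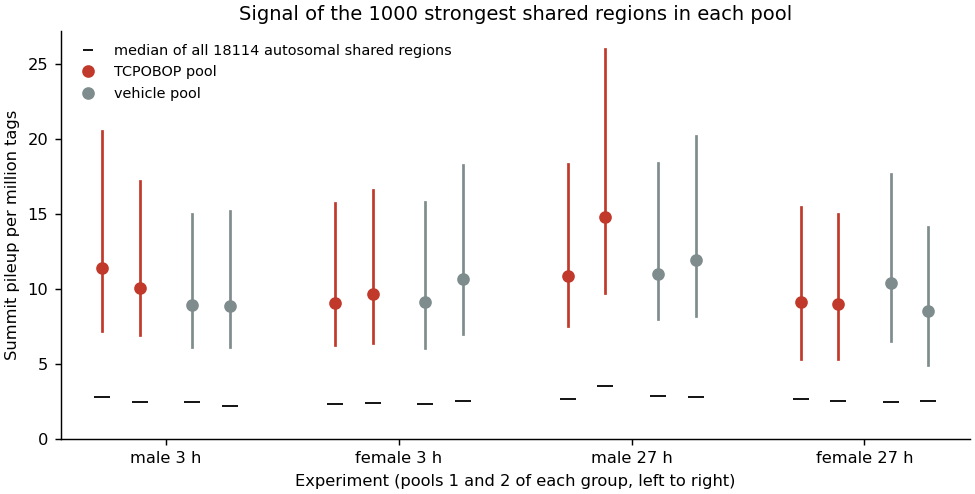
Summit pileup in RPM (vertical axis) of the 1000 members in each of 16 pools, by experiment, with TCPOBOP pools in red and vehicle pools in grey; points are medians over members, bars run from the 5th to the 95th percentile and black dashes are medians of the 18114 autosomal shared regions. The members' medians lie between 8.53 and 14.8, and the highest is the second TCPOBOP pool of males at 27 h.

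The ranking had no gap at its lower end. The members' vehicle signal ran between 25.6 and 7.69 RPM, and the last members were chr8:91392772-91394030 at 7.70, chr6:136467018-136468090 at 7.69 and chr2:32306828-32308092 at 7.69. The first regions outside were chr17:57372305-57373032, chr12:36352004-36354019 and chr3:10126997-10128279, each at 7.68. The members had a median of 9.54 RPM, against 6.59 for the next 1000 regions and 0.99 for the lowest 1000 of the shared regions.

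The region with the highest vehicle signal was chr7:26052388-26053524, with 25.6 RPM. It had 33.6 and 29.4 RPM after TCPOBOP and 23.2 and 22.8 after vehicle in males at 3 h, and 29.3 and 28.3 after TCPOBOP and 27.1 and 27.8 after vehicle in females at 3 h. At 27 h it had 29.9 and 40.6 after TCPOBOP and 25.6 and 34.5 after vehicle in males, and 24.6 and 21.4 after TCPOBOP and 27.4 and 19 after vehicle in females. In these uncentred values the TCPOBOP pools were above the vehicle pools at 3 h in both sexes and overlapped with them at 27 h. After centring, the log2 change at 3 h was 0.28 ± 0.15 in males and 0.085 ± 0.15 in females (SE, limma adjusted p = 0.42 and 0.889). The region was called in no comparison. The next were chr17:34740434-34741890 at 25.3, chr17:36053052-36054263 at 22.2, chr16:42874983-42876421 at 22.2 and chr17:56218251-56219184 at 22.0 RPM. The other members of the first 10 were chr19:12039472-12040424 at 21.1, chr17:57170845-57171792 at 20.6, chr2:27395304-27396247 at 19.9, chr17:26056610-26057672 at 19.7 and chr11:55282210-55283292 at 19.5. Of these 10 regions, 5 lie on chromosome 17, and none was called in any comparison by limma at an adjusted p of 0.05.

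High rank carried over to pools that had no part in the choice beyond having a peak in each region chosen. When the 1000 regions were chosen anew from the 6 vehicle lists of the other 3 experiments, 911 to 948 of them were members. Of the regions so chosen, 567 to 779 were among the top 1000 of a left-out TCPOBOP list, against 582 to 813 of a left-out vehicle list. Among the top 2000 of a list, the number was 789 to 980 for TCPOBOP lists and 789 to 983 for vehicle lists. Females at 27 h gave the lowest numbers, with 567 and 590 after TCPOBOP and 661 and 582 after vehicle; all lists of the other 3 experiments gave at least 696. The TCPOBOP and vehicle ranges overlapped in all but males at 27 h, where TCPOBOP lists gave 779 and 758 and vehicle lists 813 and 799.

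**Figure D2:**
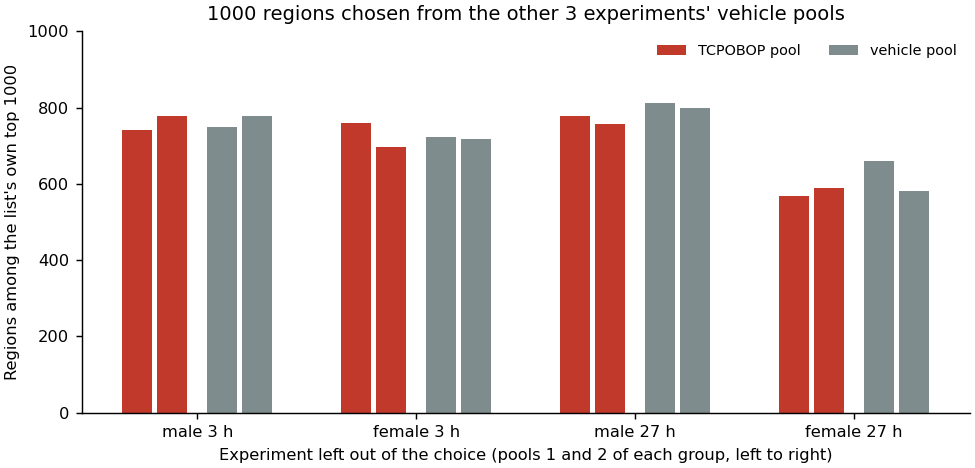
Number of regions (vertical axis, from 0 to 1000) among a list's own top 1000, for 1000 regions chosen from the vehicle pools of the other 3 experiments, with TCPOBOP pools in red and vehicle pools in grey; bars are single pools. The 4 lists of females at 27 h hold 567 to 661, below all other lists.

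At the median, members were wider than weaker shared regions. Their median width was 1169.5 bp, with quartiles of 1022.75 and 1410.25 bp and a range of 264 to 3094 bp. The next 1000 regions had a median of 1145 bp, the lowest 1000 had 822.5 bp, and all 61240 regions had 593 bp. Most of the 61240 lack a peak in some list and so join peaks of fewer lists, which makes that last value no like comparison. A merged region spans the union of its peaks, so width and signal come from the same tags and are not independent. Over the 18114 regions log2 width and signal had a Pearson r of 0.31, and within the members r was 0.05. Members wider than 2 kb numbered 45, and 18 were under 700 bp, against 0 and 245 in the lowest 1000. Ranks 1001 to 2000 had 26 and 42, and ranks 2001 to 3000 had 44 and 41. Very wide regions were not particular to the members. The widest of ranks 2001 to 3000 had 3434 bp and that of ranks 5001 to 6000 had 3493 bp.

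The peaks inside the members were 740 to 1065.5 bp wide at the median of a list, and the order followed the experiments. Peak width averaged 785 ± 8.1 bp after TCPOBOP and 766 ± 2.1 bp after vehicle in males at 3 h (SD, n = 2 each). It averaged 1058 ± 11 bp after TCPOBOP and 1005 ± 18 bp after vehicle in females at 27 h (SD, n = 2 each). In females at 3 h the means were 779.75 ± 10.3 bp after TCPOBOP and 746 ± 8.5 bp after vehicle, and in males at 27 h 944 ± 22 bp after TCPOBOP and 952.5 ± 30 bp after vehicle (SD, n = 2 each). The 3 h lists were narrower than the 27 h lists in every group, and the part that the sequencing of the 27 h libraries from both ends had in this was not tested.

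The widest member, chr6:108608253-108611346, covered 3094 bp and ranked 407. It was followed by chr3:82842813-82845819 with 3007 bp and by chr16:22899078-22901788 with 2711 bp. The summits of chr3:82842813-82845819 lay up to 1569 bp apart between lists, while those of the other 2 stayed within 139 and 203 bp. Across all members the summits of the 16 lists spread over a median of 154.5 bp, against 159 bp in ranks 1001 to 2000, 157 bp in ranks 5001 to 6000 and 284.5 bp in the lowest 1000. They spread over less than 100 bp in 281 members, against 242, 232 and 35 in these classes. In 240 members at least 1 list had several peaks.

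The narrowest member stood apart in signal as well. It was chr9:3258741-3259004, 264 bp wide and ranked 48, followed by chr13:23775696-23776188 with 493 bp and chr11:87256858-87257385 with 528 bp. At chr9:3258741-3259004 the pileup was 8.23 and 6.85 RPM after TCPOBOP and 7.59 and 7.56 after vehicle in males at 3 h, and 7.24 and 8.72 after TCPOBOP and 6.61 and 8.76 after vehicle in females at 3 h. It was 15 and 22.2 after TCPOBOP and 13.7 and 16.2 after vehicle in males at 27 h, and 91.4 and 87.1 after TCPOBOP and 64.6 and 82.7 after vehicle in females at 27 h. The 4 lists of females at 27 h hold the highest values by far, and there both TCPOBOP pools were above both vehicle pools without a call (0.24 ± 0.15, SE, limma adjusted p = 0.426). In the other 3 experiments the pools overlapped. Annotations of repeats or of regions prone to spurious signal were not used here, so whether this narrow region is an open site of the kind of the other members was not tested. Its SD over the 16 lists was 1.43 on the log2 scale, the largest among the members, whose median was 0.26.

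Members lay closer to each other than equally many regions of lower rank. The median gap to the nearest member, from edge to edge, was 255019 bp, against 390426 bp within ranks 1001 to 2000 and 633892 bp within the lowest 1000. Another member lay within 50 kb of 244 members, against 187 and 106 in these classes, and within 10 kb of 83, against 75 and 21. At the other end, 259 members had no other member within 1 Mb, against 294 and 348. These are counts of the same 16 lists and have no test. The 1000 regions ranked first by another measure of signal had a longer median gap and a smaller median width than the members, as given in the closing section.

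**Figure D3:**
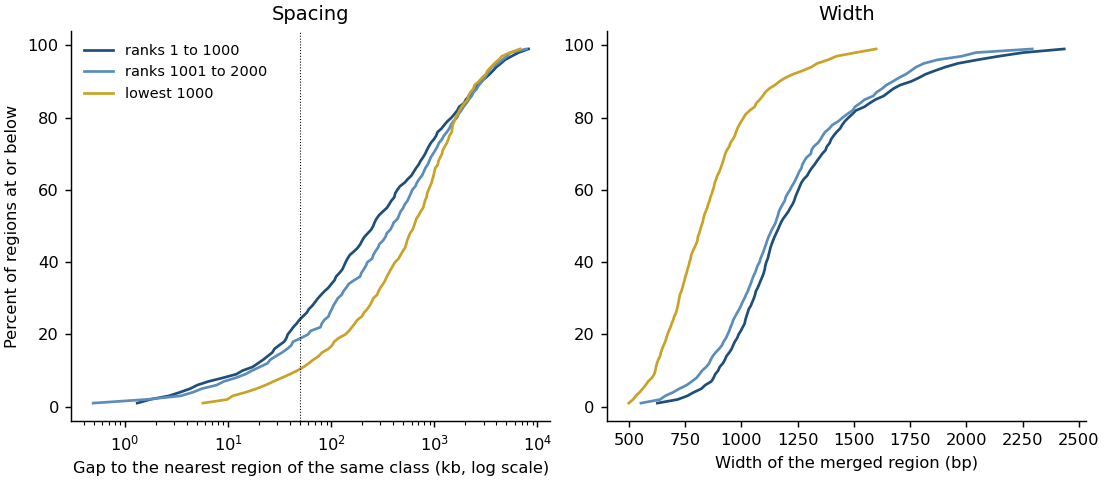
Percent of regions at or below a value (vertical axes) for the gap to the nearest region of the same class in kb (left, log scale, dotted line at 50 kb) and for the width of the merged region in bp (right), for ranks 1 to 1000, ranks 1001 to 2000 and the lowest 1000 of the 18114 regions. The members' median gap of 255019 bp is the shortest of the 3, and their median width of 1169.5 bp the largest, close to that of ranks 1001 to 2000.

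Members joined by gaps of at most 50 kb formed 107 runs, 89 of 2 members, 9 of 3, 6 of 4 and 3 of 5. The run with the highest signal among the 3 longest lay at chr2:27395304-27482699, where 5 members within 87.4 kb had vehicle signals of 19.9, 10.2, 13.9, 11.5 and 9.998 RPM in order of position. The 5 members of chr11:68853660-68939109, over 85.5 kb, had 8.77, 10.8, 8.99, 13.01 and 7.88 RPM. The 5 members of chr3:82806676-82845819, over 39.1 kb, had 10.7, 7.81, 11.9, 9.29 and 9.27 RPM, and the last of these is the second widest member. None of the 15 was called in any comparison.

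By chromosome, members made up 8.40% of the shared regions of chromosome 11 (111 of 1322), 7.58% of chromosome 7 (82 of 1082) and 7.20% of chromosome 8 (75 of 1041). The lowest shares were 3.29% on chromosome 3 (31 of 941) and 3.48% on chromosome 19 (24 of 689). Every autosome held at least 24 members.

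Other open regions lay around the members about as often as around most shared regions, and more often than around the weakest. A median of 8 other merged regions lay within 50 kb of a member, and 3 of these held a peak in all lists, against 7 and 2 around ranks 1001 to 2000, 8 and 3 around ranks 2001 to 3000, and 4 and 1 around the lowest 1000. The nearest merged region of any kind was 4601.5 bp away at the median, against 4460.5 bp for ranks 1001 to 2000, 3695.5 bp for ranks 2001 to 3000 and 8755.5 bp for the lowest 1000. No other region lay within 50 kb of 25 members.

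The regions beside the members, 6602 of 58896 autosomal regions other than members, were also followed after TCPOBOP. In females at 27 h, 3.63% of the 3029 tested near members were called lower and 3.73% higher, against 2.20% lower and 4.18% higher among the 20964 tested elsewhere. In males at 27 h, 1.59% near members were higher and 0.43% lower, against 1.83% and 0.39% elsewhere. At 3 h the shares were 0.88% higher and 0.12% lower in males, against 0.81% and 0.16%, and 1.19% higher and 0.19% lower in females, against 1.28% and 0.064%. The differences between near and far regions were not tested, since neighbouring regions are not independent.

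Most members changed little after TCPOBOP. In all 4 comparisons 958 of the 1000 stayed within 1.5-fold of vehicle and 495 within 1.2-fold, against 928 of ranks 1001 to 2000 and 713 of the lowest 1000 within 1.5-fold. A change over 1.5-fold was seen in 14 members in males at 3 h, where the share of all regions tested was 6.59%, and in 0 in females at 3 h, where it was 6.11%. At 27 h it was seen in 7 members in males, against 8.05% of all regions, and in 27 in females, against 12% of all regions. Among regions chosen without the experiment in question the counts were 18 and 1 at 3 h and 7 and 36 at 27 h in males and females, in that order. The limma SE of the change had a median of 0.151 at the members, against 0.228 to 0.25 over all regions tested. A fixed fold limit is passed more easily at a larger SE, so these counts and shares do not compare like with like. The part of the SE in them was not tested. Pools of 1 group differed least at the members, where the SD within a group had a median of 0.147 on the log2 scale. It was 0.151 for ranks 1001 to 2000 and 0.266 for the lowest 1000. The vehicle groups of different experiments had a median SD of 0.24 at the members, which is more than the SD within a group.

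Changes were tested with limma on the centred log2 pileup of every region with a peak in all 4 lists of an experiment, and calls are at an adjusted p of at most 0.05 over all regions tested. Of the members, 949 were called in none of the 4 comparisons and 51 in at least 1. Calls were rare over all regions tested too, 0.0789% to 3.93% per comparison and direction. How many of all regions were called in at least 1 comparison is not given here. Because vehicle values chose the members, counts over them describe and do not test. Counts over the regions chosen from the other 3 experiments are given beside them, since there the pools compared had no part in the choice beyond having a peak. Choosing 1000 regions from the 8 TCPOBOP lists instead shared 893 members but gave 33, 14, 33 and 42 regions called higher and 16 called lower in females at 27 h, so the counts depend on which pools do the choosing. They depend on the measure as well: with the authors' fold enrichment, the ratio of the pileup to the local background, in place of pileup, 0 of the 20 calls at members described here passed, with limma adjusted p of 0.192 or more. Under that measure at most 0.185% of all regions tested were called higher and 0.0706% lower in any comparison.

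In males at 3 h, 13 members were called higher after TCPOBOP and 1 lower, 1.30% and 0.10%, where 0.829% and 0.153% of all 22908 regions tested were called. Ranks 1001 to 2000, 2001 to 3000 and 5001 to 6000 had 7, 13 and 12 higher and 5, 2 and 1 lower. The regions chosen without this experiment gave 17 higher and 1 lower. The median log2 change of the members was 0.09, against -0.02 over all regions tested. Of the members 683 had a positive change, as did 10894 of all 22908 regions tested. All members are measured in the same pools, so such counts of signs are descriptions. The 13 changed by 0.52 to 1.02 on the log2 scale and lay on 8 chromosomes. The counts rest on both pools: without TCPOBOP pool 1 or 2 the members called higher numbered 1 and 2, and without vehicle pool 1 or 2 they numbered 3 and 5. Members called lower numbered 1 without vehicle pool 1 and 0 without any of the other 3 pools. The median change was 0.03 without vehicle pool 1 and 0.15 without vehicle pool 2.

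After the chr8 region described further on, the lowest p in this comparison was that of chr11:54910417-54912055, rank 665. It had 15.3 and 13.4 RPM after TCPOBOP and 6.95 and 6.80 after vehicle in males at 3 h. The pools did not overlap, and the log2 change was 0.89 ± 0.15 (SE, limma adjusted p = 0.00222), though the adjusted p was 0.0897 without TCPOBOP pool 1. In females at 3 h the same region had 9.71 and 9.52 after TCPOBOP and 8.26 and 11.2 after vehicle, where the pools overlapped. The difference between the sexes in its change was not called.

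The other members named for a higher signal in males at 3 h were chr4:16090302-16091559, chr7:6315049-6316147 and chr14:76202518-76203326. The region on chromosome 4 had 15.4 and 13.5 RPM after TCPOBOP and 6.70 and 8.02 after vehicle (0.81 ± 0.16, SE, limma adjusted p = 0.00835). Chr7:6315049-6316147 had 13.3 and 12.2 after TCPOBOP and 7.14 and 6.86 after vehicle (0.69 ± 0.15, SE, limma adjusted p = 0.0146), and chr14:76202518-76203326 had 15.4 and 15.2 after TCPOBOP and 7.65 and 7.56 after vehicle (0.84 ± 0.18, SE, limma adjusted p = 0.0175). In none of the 3 did the pools overlap. The chromosome 4 call was lost without either TCPOBOP pool (adjusted p = 0.139 and 0.0718) or vehicle pool 1 (0.122), and for the other 2 each of the 4 pools was needed, with adjusted p of 0.0789 to 0.155 and 0.0843 to 0.155. The 1 member called lower was chr19:43538104-43539047, with 4.96 and 5.07 after TCPOBOP and 8.55 and 6.92 after vehicle (-0.79 ± 0.18, SE, limma adjusted p = 0.0264). Leaving out any of the 4 pools ended that call too, with adjusted p of 0.0843 to 0.331.

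In females at 3 h, 1 member was called higher and 0 lower, 0.10% and 0%, where 1.2% and 0.0789% of all 22825 regions tested were called. Unadjusted p was under 0.05 in limma at 59 members, and at 2562 of all 22825 regions tested. The regions chosen without this experiment gave 2 higher and 0 lower. The median change was -0.06, against -0.01 over all regions tested. Of the members 627 had a negative change, as did 11785 of all 22825 regions tested. The 1 member called is the chr8 region described further on. Without TCPOBOP pool 1 or 2 there were 0 and 0 higher and 0 and 1 lower, and without vehicle pool 1 or 2 there were 0 and 1 higher and 0 and 0 lower.

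In males at 27 h, 3 members were called higher and 2 lower, 0.30% and 0.20%, where 1.74% and 0.382% of all 31915 regions tested were called. The regions chosen without this experiment also gave 3 and 2. The median change was 0.04, against -0.00 over all regions. Without TCPOBOP pool 1 or 2 the counts were 1 and 0 higher and 2 and 0 lower, and without vehicle pool 1 or 2 they were 1 and 3 higher and 0 and 1 lower. The lowest p among those higher was at chr5:136170679-136171686, rank 774, with 11.7 and 17.0 RPM after TCPOBOP and 9.35 and 6.65 after vehicle. The pools did not overlap, and the change was 0.72 ± 0.16 (SE, limma adjusted p = 0.0112), which was lost without TCPOBOP pool 2 (adjusted p = 0.154) or vehicle pool 2 (0.345).

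That region was also above vehicle in the other experiments without passing the test. It had 16.6 and 11.8 after TCPOBOP and 8.48 and 7.61 after vehicle in males at 3 h (0.62, limma adjusted p = 0.0554). In females it had 14.2 and 15 after TCPOBOP and 8.85 and 11.5 after vehicle at 3 h (0.55, limma adjusted p = 0.0981), and 11.1 and 10.8 after TCPOBOP and 8.80 and 6.59 after vehicle at 27 h (0.47, limma adjusted p = 0.0809). In each experiment both TCPOBOP pools were above both vehicle pools. The authors' fold enrichment was not higher in the same way, with 10.5 ± 1.25 after TCPOBOP and 10.9 ± 0.34 after vehicle in males at 27 h (SD, n = 2 each), a change of -0.11 on the log2 scale. It was 12.9 ± 1.31 after TCPOBOP and 12.3 ± 0.42 after vehicle in males at 3 h, 13.1 ± 0.82 after TCPOBOP and 13.4 ± 0.76 after vehicle in females at 3 h, and 5.62 ± 0.25 after TCPOBOP and 6.75 ± 0.64 after vehicle in females at 27 h (SD, n = 2 each). The remaining member called higher in males at 27 h, chr12:113825320-113827067, had 14.8 and 22.5 after TCPOBOP and 11.2 and 10.8 after vehicle (0.62 ± 0.16, SE, limma adjusted p = 0.0309), and it did not pass once any 1 of the 4 pools was left out (adjusted p = 0.0679 to 0.332).

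Females at 27 h gave the most calls among the members, and nearly all were lower after TCPOBOP. Of the members 34 were called lower and 2 higher, 3.40% and 0.20%, where 2.4% and 3.93% of all 25502 regions tested were called. Lower calls were about as many in the classes ranked next. Ranks 1001 to 2000, 2001 to 3000 and 5001 to 6000 had 36, 39 and 35 lower and 20, 34 and 51 higher. The regions chosen without this experiment gave 35 lower and 10 higher. The median change was -0.10, against -0.02 over all regions tested. Of the members 726 had a negative change, as did 13472 of all 25502 regions tested. The 34 fell by 0.48 to 1.31 on the log2 scale, lay on 15 chromosomes, and 14 of them were within the first 500 ranks.

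The size of that group depended on the vehicle pools. Shares of all regions called with a pool left out are not given here, so whether this holds for the members alone was not tested. The members' medians were 9.10 and 8.998 RPM after TCPOBOP and 10.4 and 8.53 RPM after vehicle. Without vehicle pool 1 the members called numbered 5 lower and 12 higher and their median change was 0.02, and without vehicle pool 2 they numbered 104 lower and 0 higher and the median was -0.25. Without TCPOBOP pool 1 or 2 there were 10 and 15 lower and 2 and 0 higher. Without centring the counts were 6 lower and 0 higher, where 1.16% and 3.27% of all regions tested were called. With libraries centred on the 5000 regions of highest signal they were 44 and 12, where 2.09% and 4.27% of all regions were called.

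Of the 5 members lower with the lowest p, chr13:94407100-94408150 is described further on. Chr1:107009305-107010067, rank 972, had 5.27 and 4.05 RPM after TCPOBOP and 9.15 and 8.76 after vehicle in females at 27 h, a change of -1.01 with no overlap between pools. It was not among the regions chosen without this experiment, so its change is a description. Chr13:31638645-31640054 had 2.87 and 3.43 after TCPOBOP and 6.95 and 4.49 after vehicle (-0.88 ± 0.17, SE, limma adjusted p = 0.00109), and the adjusted p was 0.0684 without vehicle pool 1. These pools did not overlap either.

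Chr8:96702608-96704153 had the largest fall, with 5.07 and 4.22 RPM after TCPOBOP and 14.3 and 8.53 after vehicle in females at 27 h (-1.31 ± 0.27, SE, limma adjusted p = 0.0028), and the adjusted p was 0.112 without vehicle pool 1. The local background was lower together with the pileup there, 0.828 ± 0.19 RPM after TCPOBOP and 2.08 ± 0.59 after vehicle, so that the fold enrichment was 5.47 ± 0.53 after TCPOBOP and 5.34 ± 0.46 after vehicle (SD, n = 2 each), a log2 change of 0.0016. In males at 27 h it had 5.48 and 6.05 after TCPOBOP and 12 and 7.45 after vehicle, again without overlap (-0.84, limma adjusted p = 0.136). Chr11:74645341-74646079 had 6.94 and 5.97 after TCPOBOP and 10.1 and 9.48 after vehicle in females at 27 h (-0.66 ± 0.14, SE, limma adjusted p = 0.00367), and the adjusted p was 0.0846 without TCPOBOP pool 2. The member called higher beside the chr8 region below was chr11:87262232-87262948, with 7.86 and 8.34 after TCPOBOP and 6.18 and 4.71 after vehicle (0.53 ± 0.16, SE, limma adjusted p = 0.0469). That call was lost without either TCPOBOP pool (adjusted p = 0.119 and 0.309) or vehicle pool 2 (0.345), and the region lies 4846 bp from the third narrowest member.

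Members called in more than 1 comparison numbered 3, with no count over all regions given here, and none was called in opposite directions. The first, chr8:95721255-95722495, 1241 bp wide and ranked 532, was called higher in all 4. It had 17.9 and 15.9 RPM after TCPOBOP and 7.53 and 7.21 after vehicle in males at 3 h, and 13.7 and 14.8 after TCPOBOP and 8.14 and 11.3 after vehicle in females at 3 h. At 27 h it had 17.7 and 21.3 after TCPOBOP and 12.1 and 11.3 after vehicle in males, and 13.8 and 15.3 after TCPOBOP and 10.1 and 8.53 after vehicle in females. All 8 TCPOBOP pools were above all 8 vehicle pools, and its summits lay within 22 bp in the 16 lists.

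Its log2 changes were 1.02, 0.58, 0.61 and 0.59 (each ± 0.14, SE) in males at 3 h, females at 3 h, males at 27 h and females at 27 h, with limma adjusted p of 0.000149, 0.0291, 0.0143 and 0.00833. The first call was kept without any 1 of its 4 pools. The call in females at 3 h was lost without either TCPOBOP pool (adjusted p = 0.125 and 0.187) or vehicle pool 1 (0.425). Leaving out any of the 4 pools ended that of males at 27 h (adjusted p = 0.0647 to 0.178). That of females at 27 h was lost without TCPOBOP pool 2 (0.176) or vehicle pool 2 (0.0786).

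The authors' fold enrichment did not show the same rise at this region. At 3 h it was 17.7 ± 0.35 after TCPOBOP and 14.5 ± 0.0078 after vehicle in males, and 16.5 ± 1.13 after TCPOBOP and 17.2 ± 1.91 after vehicle in females (SD, n = 2 each). At 27 h it was 16.2 ± 0.28 after TCPOBOP and 15.7 ± 0.23 after vehicle in males, and 12.03 ± 0.67 after TCPOBOP and 11.9 ± 1.40 after vehicle in females (SD, n = 2 each). The TCPOBOP and vehicle pools overlapped in females at both times and did not in males. The local background recovered from fold and pileup was at 3 h 0.911 ± 0.070 RPM after TCPOBOP and 0.451 ± 0.012 after vehicle in males, and 0.818 ± 0.013 after TCPOBOP and 0.506 ± 0.067 after vehicle in females (SD, n = 2 each). At 27 h it was 1.17 ± 0.18 after TCPOBOP and 0.723 ± 0.025 after vehicle in males, and 1.17 ± 0.023 after TCPOBOP and 0.738 ± 0.014 after vehicle in females (SD, n = 2 each). The background was therefore higher with the pileup in every experiment, and the window it is taken over, up to 10000 bp, holds the peak itself.

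Around chr8:95721255-95722495 lay 14 other merged regions within 50 kb, 3 of them with a peak in all lists. Of the regions tested, 2 of 7 in males at 27 h and 3 of 5 in females at 27 h were called higher, and 0 were called lower in any experiment. Chr8:95684950-95685685, 35569 bp away, changed by 1.00 in males at 27 h (limma adjusted p = 0.00535) and by 0.98 in females at 27 h (limma adjusted p = 0.00286). Chr8:95686976-95688149, 33105 bp away, changed by 0.74 and 0.68 (limma adjusted p = 0.0122 and 0.0123). The nearest member on the other side, chr8:95757444-95758920, 34948 bp away and ranked 189, had changes of -0.07 to 0.12 over the 4 comparisons and was not called.

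The other 2 were lower at 27 h in both sexes. Chr13:94407100-94408150, rank 701, had 4.47 and 5.44 RPM after TCPOBOP and 9.80 and 7.43 after vehicle in males at 27 h, and 2.87 and 2.83 after TCPOBOP and 8.00 and 4.77 after vehicle in females at 27 h. The pools did not overlap, and the changes were -0.91 and -1.17 (each ± 0.19, SE, limma adjusted p = 0.00653 and 0.000192). The call in females was kept without any 1 of its pools, and that in males was lost without TCPOBOP pool 2 (adjusted p = 0.0864) or vehicle pool 1 (0.21). At 3 h it had 10.6 and 7.44 after TCPOBOP and 8.74 and 10.5 after vehicle in males, where the pools overlapped, and 6.86 and 8.62 after TCPOBOP and 10.6 and 11.5 after vehicle in females, where they did not but the change missed the threshold (-0.50, limma adjusted p = 0.268). The member chr13:94418356-94419395, 10205 bp away and ranked 226, was not called. A region 15133 bp away with a peak in all lists, chr13:94423284-94424011, was called lower in females at 3 h (-0.80, limma adjusted p = 0.0429) and in no other comparison.

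Chr2:26455245-26456806, rank 312, had 8.91 and 12.1 RPM after TCPOBOP and 15.1 and 14.4 after vehicle in males at 27 h, and 5.90 and 5.27 after TCPOBOP and 9.75 and 7.32 after vehicle in females at 27 h. The pools did not overlap, and the changes were -0.63 and -0.65 (each ± 0.15, SE, limma adjusted p = 0.0203 and 0.00645). Leaving out any of the 4 pools ended the call in males (adjusted p = 0.115 to 0.176). The call in females was lost without TCPOBOP pool 2 (0.0929) or vehicle pool 1 (0.134). At 3 h the changes were 0.13 in males and -0.18 in females, neither called. A region of 9 lists 2572 bp away, chr2:26459379-26460074, was also called lower in females at 27 h (-0.66, limma adjusted p = 0.0218).

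**Figure D4:**
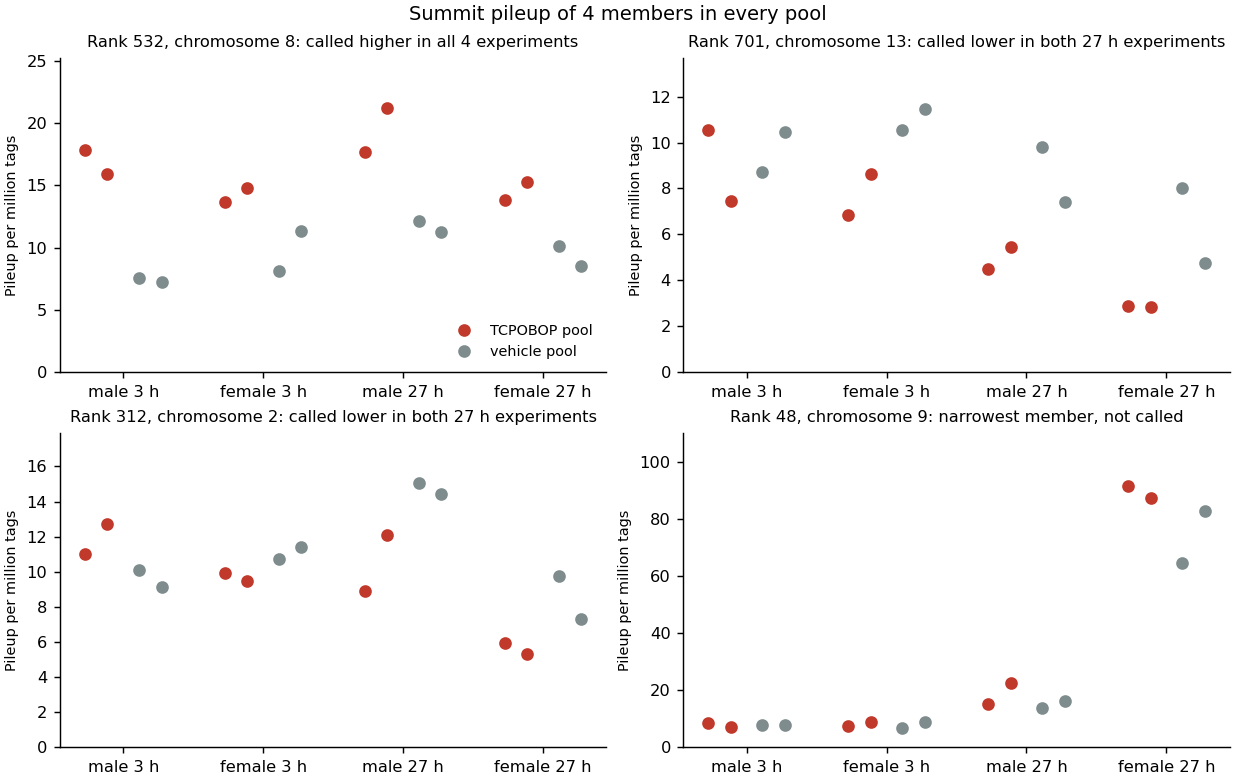
Summit pileup in RPM (vertical axes, each from 0) in every pool, by experiment, with TCPOBOP pools in red and vehicle pools in grey, for the 3 members called in several comparisons and for the narrowest member. At rank 532 all TCPOBOP pools lie above all vehicle pools, at ranks 701 and 312 the TCPOBOP pools lie below vehicle at 27 h, and at rank 48 the 4 pools of females at 27 h are the highest.

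The change also varied with rank. In males at 3 h the median log2 change was 0.09 at ranks 1 to 1000, 0.04 at ranks 1001 to 2000 and -0.07 in the lowest 1000. In females the order was turned round, with -0.06, -0.04 and 0.05 at 3 h and -0.10, -0.07 and 0.06 at 27 h in the same classes. In males at 27 h it was 0.04, 0.01 and 0.01. These shifts use the vehicle values that gave the ranks, and leaving out pools moved those of males at 3 h and females at 27 h as given above. Their part in the counts of calls was not tested.

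**Figure D5:**
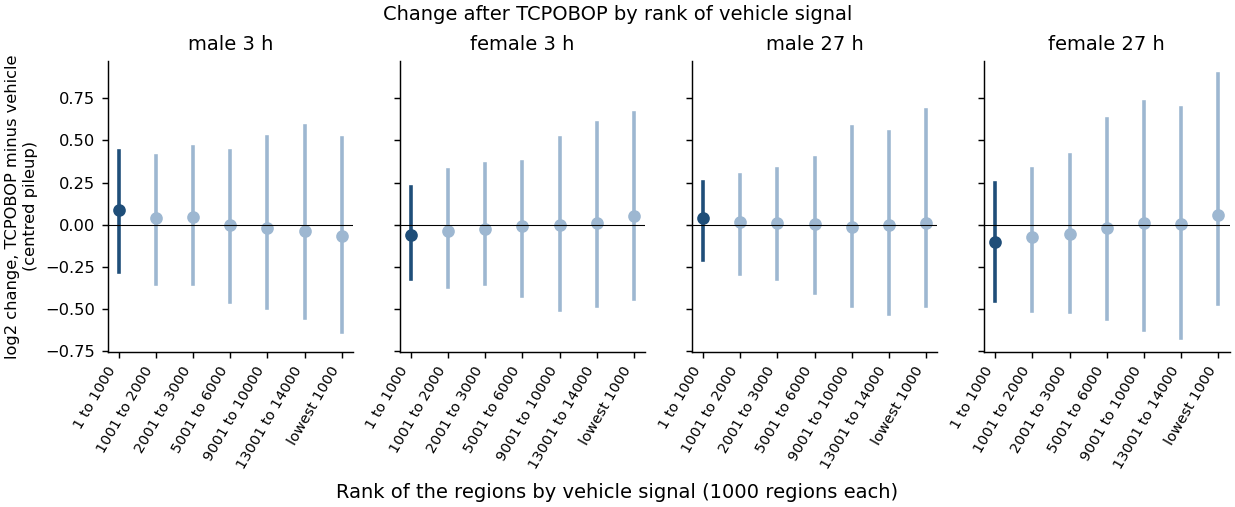
Log2 change after TCPOBOP relative to vehicle (vertical axis, centred pileup) by rank of vehicle signal (horizontal axis, 7 classes of 1000 regions each) in 4 experiments; points are medians and bars run from the 5th to the 95th percentile over regions. The members, in dark blue, have the narrowest bars, with medians of 0.09, -0.06, 0.04 and -0.10.

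No member was called for a difference between changes. Between males and females at 3 h the share of all regions called was 0.005%, and 156 members had an unadjusted limma p under 0.05, with a lowest adjusted p of 0.137. Between males and females at 27 h the share was 0.00826%, and 51 members had an unadjusted p under 0.05. Between 27 h and 3 h the shares were 0.0313% in males, with 66 such members, and 0.18% in females, with 59 and a lowest adjusted p of 0.0671. A male or female call at 1 member is thus not shown to differ from the other sex. Counts of unadjusted p under 0.05 over all regions are not given here for these differences.

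Across the 16 lists the members ranged from nearly constant to variable. The smallest SDs of centred log2 pileup, 0.09 each, were those of chr6:11857102-11858063, chr10:118676769-118678143 and chr10:30337532-30338777. At chr10:118676769-118678143, rank 66, the pileup was 14.3 to 22.2 RPM after TCPOBOP and 12.6 to 18.1 after vehicle, with the highest value in the pool that stood apart. After chr9:3258741-3259004, the largest SDs were those of chr2:77783597-77784934 and chr4:62999459-63000296, 0.83 each.

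The 2 variable members differed in how they varied. At chr2:77783597-77784934, rank 159, the pools of 1 group were far apart at 3 h, with 7.72 and 14.2 RPM after TCPOBOP and 29.0 and 3.25 after vehicle in males at 3 h, and 6.71 and 15.3 after TCPOBOP and 15 and 5.43 after vehicle in females at 3 h. At chr4:62999459-63000296, rank 574, the pools of a group were closer and the times differed. There the 3 h pools had 12.5 to 20.01 after TCPOBOP and 9.18 to 19.7 after vehicle, and the 27 h pools had 3.96 to 7.68 after TCPOBOP and 4.77 to 7.17 after vehicle. Neither was called in any comparison.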

How the data were processed

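Chromatin of 16 liver pools was digested with DNase I, and fragments of 125 to 400 bp were sequenced, per the labels' protocols. Bowtie, its version not given in the sources used here, aligned reads to mm9, per the submitters' processing notes. Of the paired reads of the 27 h libraries, read 1 alone entered, per the labels' protocols. MACS 2.1.0.20150731 was run per pool, with no control, all duplicates kept, a q-value limit of 0.05, and 50 bp tags shifted 100 bp before extension to 200 bp, per the file headers. The deposited pileup is a signal, the unscaled number of extended tags at a summit. The deposited fold enrichment is its ratio to that library's local background. Columns of −log10 p-value and −log10 q-value were also deposited by the authors. In 1 list of females 27 h after TCPOBOP the heading carries the code of another experiment, and its command line and peak names were followed.

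A region's value in a list was the highest pileup of its peaks, divided by the tags in the header and multiplied by 1000000. Log2 values were centred by the median deviation over the regions with a peak in all lists. One limma 3.58.1 fit (R 4.3.3) of 8 groups, with a mean trend in the prior and no replicate block, gave TCPOBOP minus vehicle within each experiment, with Benjamini-Hochberg adjustment over all regions tested; the fit was checked on simulated data. The local background was recovered as (pileup + 1) / fold - 1, a formula that gave back the deposited −log10 p within 1% for 99.5% of 581604 peaks. Other steps used Python 3.11.15, numpy 2.4.6, pandas 2.3.3, scipy 1.17.1 and matplotlib 3.10.9.

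The regions named are the first 10 members, 3 on each side of the threshold, the 3 widest and 3 narrowest, the 3 longest runs, the 3 with the smallest and 3 with the largest SD, and up to 5 called higher and 5 lower per comparison by lowest p. Members called in several comparisons and regions beside them were singled out after their values were seen. The members, the lists and the rules were chosen with earlier results of these data known. The pools of a group shared 0 to 2 peaks of equal position and pileup and were counted as separate samples. An mm9 genome and annotation were not used here, so no gene and no sequence is given. Alternatives were other centrings, regions tested, sources and priors of the spread, a replicate block, fold enrichment in place of pileup, stricter peaks, a larger overlap, members chosen from TCPOBOP lists, and each pool left out.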

Additional observations from a re-analysis of the deposited data

How the results depend on the processing

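The members' geometry held under most settings. Without any 1 pool the median width was 1137.5 to 1173.5 bp, the median gap 231494 to 277200 bp and the number within 50 kb 226 to 257. Ranking by fold enrichment shared 388 members and gave 1033 bp, 509268 bp and 85. Ranks 1001 to 2000 by pileup had 1145 bp, 390426 bp and 187, and the lowest 1000 by pileup had 822.5 bp, 633892 bp and 106. Lower ranks by fold enrichment were not measured. Whether its first 1000 regions are wider or closer together than regions of lower fold enrichment was therefore not tested.

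Counts of called members follow in the order males 3 h, females 3 h, males 27 h and females 27 h. With a pool left out they were 1 to 5, 0 to 1, 0 to 3 and 0 to 12 higher, and 0 to 1, 0 to 1, 0 to 2 and 5 to 104 lower. Among regions chosen without the experiment they were 1 to 8, 0 to 1, 0 to 3 and 4 to 23 higher, and 0, 0, 0 to 2 and 6 to 104 lower. The median change of the members was then 0.026 to 0.15, -0.09 to -0.02, -0.02 to 0.09 and -0.25 to 0.024. With the spread taken from the 4 lists of an experiment they were 4, 0, 10 and 1 higher and 0, 0, 6 and 26 lower. Of all regions tested 0.188%, 0.784%, 3.09% and 4.23% were then higher and 0.0044%, 0.044%, 1.28% and 2.67% lower. The regions chosen without the experiment gave 5, 0 and 10 higher in the first 3, and 0 and 6 lower in males. Without a mean trend 1, 0, 0 and 0 were higher and 0, 0, 0 and 7 lower, against 1, 0, 0 and 4 higher and 0, 0, 0 and 7 lower among regions chosen without the experiment. Fold enrichment in place of pileup gave 0 higher in all 4, and 0, 0, 0 and 1 lower, with a median change of -0.011 in males at 3 h. Unadjusted limma p was then under 0.05 at 73, 36, 6 and 63 members, and like counts over all regions are not given here. Calls were rare over all regions too under fold enrichment, 0.0393%, 0.0701%, 0.185% and 0.129% higher and 0.0044%, 0%, 0.025% and 0.0706% lower, and without a mean trend 0.188%, 0.618%, 1.27% and 2.9% were higher and 0.017%, 0.018%, 0.229% and 1.39% lower. Members chosen from TCPOBOP lists gave 33, 14, 33 and 42 higher, and 0, 1 and 16 lower in males at 3 h, males at 27 h and females at 27 h. Without centring 12, 0, 2 and 0 were higher and 0, 0, 1 and 6 lower, with median changes of 0.26 and 0.16 in males at 3 h and 27 h. Of all regions tested 1.27%, 0.613%, 2.1% and 3.27% were then higher and 0.022%, 0.022%, 0.147% and 1.16% lower. The regions chosen without the experiment gave 0 and 6 higher in females at 3 h and 27 h. They gave 0, 1 and 7 lower in males at 3 h, males at 27 h and females at 27 h. Centred on the 5000 regions of highest signal, 14, 2, 4 and 12 were higher and 5, 0, 2 and 44 lower, with a median change of 0.027 in males at 3 h. Of all regions tested 0.594%, 1.26%, 1.46% and 4.27% were then higher and 0.24%, 0.083%, 0.404% and 2.09% lower. The regions chosen without the experiment gave 21 higher in females at 27 h and 4 lower in males at 3 h. Peaks with −log10 q of at least 10 gave 3 lower in males at 3 h and 4 higher in females at 27 h. Shares over all regions with a pool left out or with the stricter peaks are not given here. The cause of these shifts was not tested.

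With fold enrichment the change turned sign at chr8:95721255-95722495 in females at 3 h (-0.080) and 27 h (-0.021), at chr5:136170679-136171686 in males at 27 h (-0.11) and at chr8:96702608-96704153 in females at 27 h (0.0016). Of 20 named calls, 3 were kept without any 1 pool, 0 with fold enrichment, 6 without a mean trend, 12 without centring, 16 with the spread of the experiment alone and all 20 under the other centring and among regions with a peak in all lists. The labels do not say that equal pool numbers share mice or a day, and same-numbered pools had correlations of -0.04, 0.02, 0.03 and -0.03 over 18443 regions in their deviations from the group means. With a replicate block for the pool number, 12, 1, 3 and 2 members were higher and 1, 0, 3 and 32 lower. Of all regions tested 0.773%, 1.27%, 1.85% and 3.99% were then higher and 0.127%, 0.118%, 0.504% and 2.55% lower. That block lost 1 named call, chr11:87262232-87262948 in females at 27 h (limma adjusted p = 0.0514). Precision is limited by 2 pools a group and, at the weakest members, by 52 to 232 tags.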
